A study of Mus musculus with 14 samples.

Results

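The NADPH oxidases of the gut epithelium were followed as a set of 8 genes: the dual oxidases Duox1 and Duox2, their maturation factors Duoxa1 and Duoxa2, the oxidase Nox1, its organizer Noxo1 and activator Noxa1, and Cyba, which encodes the membrane partner p22phox. All 8 symbols were found among the 54532 genes of the ileum count table. The set was selected on the measured difference between IKO and WT in these same mice, so the genotype contrast of these genes is described by its values and was not tested anew.

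These enzymes carry electrons from NADPH across a membrane to oxygen. The dual oxidases sit at the apical face of epithelial cells and release hydrogen peroxide towards the lumen, where it takes part in defence against bacteria, and each must pair with its DUOXA partner to leave the endoplasmic reticulum. NOX1, known best from the colon, makes superoxide and needs p22phox, NOXO1, NOXA1 and the small GTPase RAC1. In the small intestine DUOX2 is known to be induced by microbes.

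RNA was sequenced from the scraped ileum mucosa of 7 wild-type (WT) and 7 intestinal epithelial NCoR1-knockout (IKO) male mice, 1 library per mouse, after 15 weeks on a high fat diet (HFD). Both groups carried the floxed NCoR1 allele on both chromosomes (flox/flox), and the IKO mice also carried Cre recombinase under the villin promoter, which is active in epithelial cells along the intestine. The Cre transgene was present only in the IKO mice, so its presence and the loss of NCoR1 cannot be told apart. The methods put the mice at 7 to 8 weeks of age when the feeding started, while a legend of the same study gives an older age. The labels name the cells as intestinal epithelial cells, but a scraping also holds immune and stromal cells. The ileal genes Fabp6 and Slc10a2 were present in these libraries, and the colon genes Hoxb13 and Hoxd13 were listed at 0 counts in all 14.

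Libraries held 14749669 to 18744592 counts in WT and 15822384 to 21557468 in IKO. Ncor1 itself (chr11:62316426-62458541, mm10) was measured at 134.7 ± 31.3 CPM (counts scaled to the effective size of each library; SD, n = 7) in WT and at 50.6 ± 10.97 CPM in IKO, with a log2 difference of -1.41 (SE 0.18; adjusted p = 0.00051 by edgeR's quasi-likelihood test), and the groups did not overlap. A few libraries, 3 in all, stood apart. In IKO 4, 50.3% of the counts fell on mitochondrial genes, in WT 3 23.9%, and in the other 12 libraries 3.49% to 10.3%. In WT 4 the smooth muscle markers summed to 10855 CPM, against at most 796 CPM in any other library. Results that rest on these 3 libraries are given with and without them. In bulk mucosa, fewer cells of a type and less RNA per cell cannot be told apart.

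The genes for both dual oxidases and both maturation factors lie side by side on mouse chromosome 2 within 68.7 kb (GRCm38, the assembly also called mm10). In the deposited annotation Duox2 runs along the minus strand, Duoxa2 starts 734 bases away from the start of Duox2 on the plus strand, and Duoxa1 faces Duoxa2 tail to tail, with 695 bases shared by their gene bodies. Duox1 starts 1941 bases beyond the start of Duoxa1. Each oxidase gene thus reads away from the gene of its own maturation factor. The promoter windows of the 4 genes are shown because the pairs share the stretch between their starts. They come from RefSeq (GRCm38.p6), read 5′ to 3′ along the gene from 250 bases before to 50 bases after the start, and capitals mark a TATA box (TATAAA), a nuclear receptor core site (AGGTCA) or an SP1-type GC box (GGGCGG) on either strand. The start of Duox2 in RefSeq differs from that in the deposited annotation, and the other 3 starts are the same.
Duox2 promoter (chr2:122298178-122298477, minus strand): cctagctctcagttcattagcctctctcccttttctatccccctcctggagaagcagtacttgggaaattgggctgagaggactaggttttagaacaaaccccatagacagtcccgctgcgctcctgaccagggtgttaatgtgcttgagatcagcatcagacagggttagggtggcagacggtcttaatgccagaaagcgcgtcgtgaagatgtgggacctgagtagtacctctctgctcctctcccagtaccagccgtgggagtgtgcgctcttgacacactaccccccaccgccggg
Duoxa2 promoter (chr2:122298650-122298949, plus strand): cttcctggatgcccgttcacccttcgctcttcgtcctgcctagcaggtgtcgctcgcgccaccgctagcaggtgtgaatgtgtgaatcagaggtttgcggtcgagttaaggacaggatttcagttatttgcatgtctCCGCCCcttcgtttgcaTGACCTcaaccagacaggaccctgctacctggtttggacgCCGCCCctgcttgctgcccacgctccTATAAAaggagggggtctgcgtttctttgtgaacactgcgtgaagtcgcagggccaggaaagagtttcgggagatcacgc
Duoxa1 promoter (chr2:122313681-122313980, minus strand): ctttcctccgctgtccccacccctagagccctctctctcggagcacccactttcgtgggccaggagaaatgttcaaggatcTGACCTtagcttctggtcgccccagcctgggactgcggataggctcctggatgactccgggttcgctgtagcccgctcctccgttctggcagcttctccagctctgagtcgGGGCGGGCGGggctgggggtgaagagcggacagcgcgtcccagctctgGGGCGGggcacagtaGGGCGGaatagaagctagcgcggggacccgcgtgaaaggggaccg
Duox1 promoter (chr2:122315422-122315721, plus strand): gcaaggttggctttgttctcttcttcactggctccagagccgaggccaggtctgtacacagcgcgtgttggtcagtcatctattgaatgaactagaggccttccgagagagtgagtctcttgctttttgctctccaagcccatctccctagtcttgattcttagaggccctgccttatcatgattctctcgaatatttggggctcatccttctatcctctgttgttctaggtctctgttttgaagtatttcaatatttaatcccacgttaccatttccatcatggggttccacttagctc

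Duoxa2 held a TATAAA that began at position -30, counted from its start, which 13.6% of 32851 RefSeq promoter windows of the same 300 bases also hold somewhere, on either strand. It also held AGGTCA on the opposite strand at -96 (16.3% of all windows) and GGGCGG on the opposite strand at -113 and -56 (35.7% of all windows). Duoxa1 held AGGTCA on the opposite strand at -169 and 4 GGGCGG matches, of which those at -58 and -54 overlap each other. The Duox2 and Duox1 windows held none of these 3 motifs. A CCAAT box on the opposite strand at -183 was found in Duox2 (37.4% of all windows). The STAT site (3.91% of all windows) and the NF-kB site (4.51%) had no match in the 4 windows. These are matches of letters and not measured sites.

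Duox2, the catalytic oxidase, and Duoxa2, the factor that releases it from the endoplasmic reticulum, were both far higher in IKO than in WT, Duoxa1 was higher from a level near 0, and Noxa1, Noxo1 and Cyba had close values in both groups. Of the 8 genes, 6 passed the filter on low counts (Duox1 and Nox1 did not), and 3 of these 6 had an adjusted p under 0.05, all higher in IKO. Across the 13846 genes tested, 8.67% passed that threshold (4.38% higher and 4.28% lower). Since the contrast chose the genes, nothing is read from their count.

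Duox2 (ENSMUSG00000068452) was measured at 54.5, 55.5, 91.7, 24.9, 52.3, 54.3 and 59.8 CPM in WT 1 to WT 7. In IKO 1 to IKO 7 it was measured at 409, 139, 736, 56.4, 506, 458 and 472 CPM. A high group held 5 IKO mice, IKO 2 lay between that group and WT, and IKO 4 alone fell inside the WT range, just above the WT median. The groups therefore overlapped by 1 mouse. The mean was 56.1 ± 19.5 CPM (SD, n = 7) in WT and 397 ± 231 CPM in IKO. The fitted log2 difference was 2.82 (SE 0.45), a 7.07-fold higher level in IKO. IKO 4 is the library with 50.3% of its counts on mitochondrial genes, and WT 4, the lowest WT mouse, is the one rich in smooth muscle markers. Their part in these values was not tested, but the difference was as large without them: 3.02 without IKO 4 and 3.04 without IKO 4, WT 3 and WT 4 together.

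Duoxa2 (ENSMUSG00000027225) was measured at 9.85, 10.2, 8.50, 10.02, 11.1, 8.59 and 10.9 CPM in WT 1 to WT 7, the narrowest spread of the 8 genes for its level. In IKO 1 to IKO 7 it was measured at 145, 53.8, 259, 45.0, 197, 169 and 158 CPM. The same 5 IKO mice were high and IKO 2 and IKO 4 were again the lowest, but here even IKO 4 lay clear of every WT mouse, so the groups did not overlap. The mean was 9.87 ± 1.02 CPM (SD, n = 7) in WT and 147 ± 76.0 CPM in IKO. The fitted log2 difference was 3.89 (SE 0.35), a 14.8-fold higher level in IKO, and 4.01 without the 3 libraries. Only 10 of the 13846 genes (0.0722%), Duoxa2 included, had a fitted difference this large or larger, and 22 (0.159%) had one at least as large as that of Duox2. All 7 IKO mice lay above all 7 WT mice in 1.83% of the genes tested, and below them in 1.26%.

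**Figure D1:**
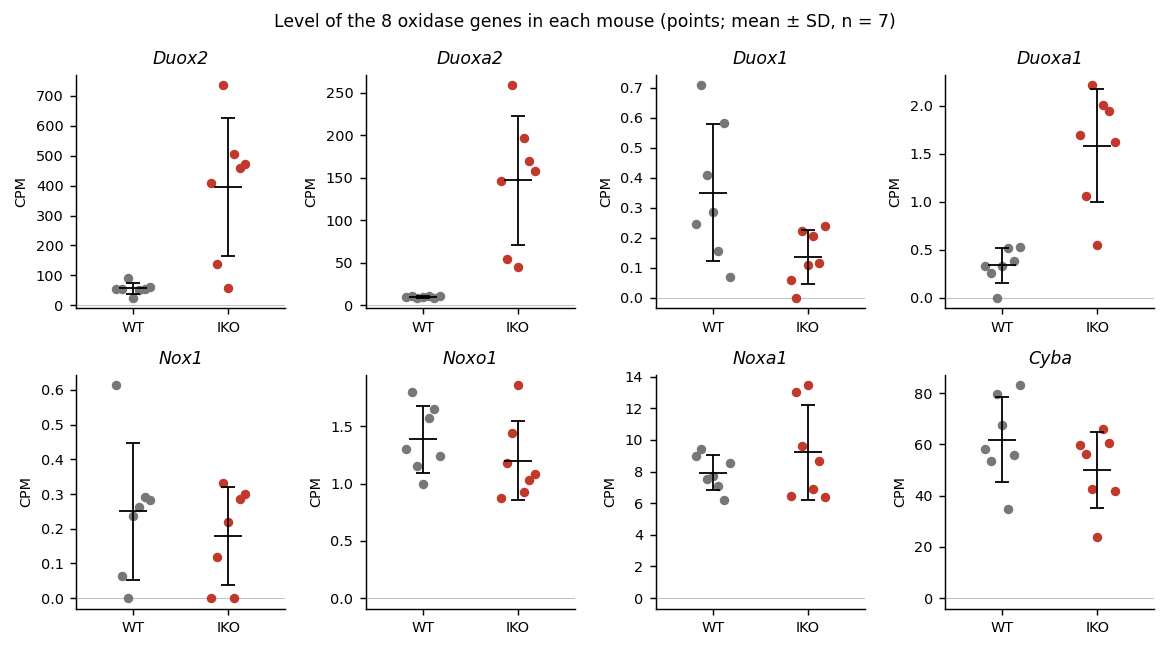
Level of each of the 8 oxidase genes in CPM (linear axes, scaled per gene), with 1 point per mouse, grey for WT and red for IKO, and bars at the mean ± SD (n = 7). Duox2, Duoxa2 and Duoxa1 sit higher in IKO, Duox1 and Nox1 stay under 1 CPM in every mouse, and the groups overlap for Noxo1, Noxa1 and Cyba.

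The spread between mice differed between these 2 genes and between the genotypes. The coefficient of variation (SD over mean) of Duoxa2 in CPM was 10.3% in WT and 51.8% in IKO, and that of Duox2 was 34.7% in WT and 58.1% in IKO. Without WT 3, WT 4 and IKO 4, it was 9.85% in WT and 41.1% in IKO for Duoxa2, and 4.99% in WT and 42.3% in IKO for Duox2, so most of the WT spread of Duox2 came from WT 3 and WT 4. Counting noise alone would give 7.25% for Duoxa2 in WT, at 125 to 308 counts per library, and 2.05% to 3.17% for the other 3 values. The difference in spread between the genotypes was not tested.

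Within the IKO group, mice high in Duox2 were high in Duoxa2. On log2 CPM the correlation over the 7 IKO mice was r = 0.97 (exact permutation p = 0.000397, adjusted p = 0.000794 over the 2 genotypes) and Spearman's rho was 0.964 (exact permutation p = 0.00278, adjusted p = 0.00556). Without IKO 2 and IKO 4, the mice farthest from the median of Duox2, r was 0.97 over the remaining 5. In WT, r was -0.35 (exact permutation p = 0.460, adjusted p = 0.460) and rho was -0.286 (exact permutation p = 0.556, adjusted p = 0.556). Without WT 3 and WT 4, r was 0.20, so its sign rests on those mice, and it was 0.05 without WT 3 alone. The difference between the genotypes in this relation was not tested, and the tests are two-sided. Of the 5 other pairs set up for this test (Duox1 with Duoxa1, Nox1 with each of its cofactors and with Duox2), each held a gene with a median under 10 counts in both genotypes and none was computed. The remaining pairs of members were not examined. How strongly other genes correlate with Duox2 among the 7 IKO mice alone was not computed. These p-values therefore do not show whether the pair stands out from other genes of the same libraries.

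**Figure D2:**
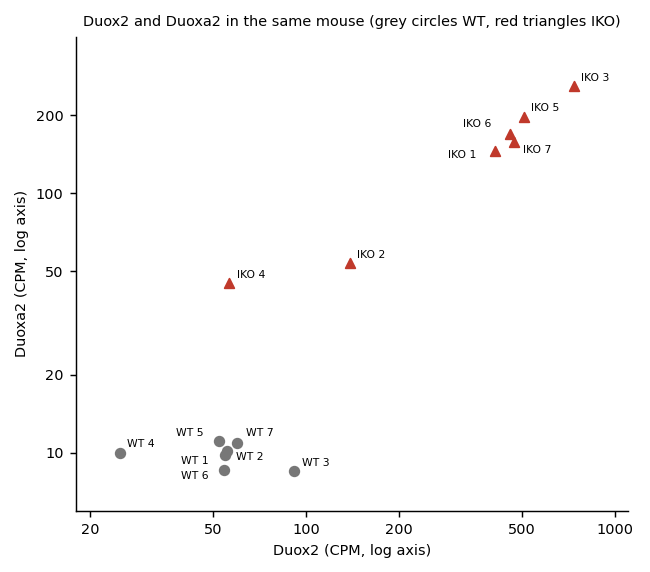
Duoxa2 against Duox2 in each mouse, both in CPM on log axes, with grey circles for WT and red triangles for IKO. The IKO mice lie along a line from IKO 4 (56.4 and 45.0 CPM) to IKO 3 (736 and 259 CPM). In WT, 5 mice lie close together (52.3 to 59.8 CPM in Duox2). Only WT 3 (91.7 CPM) and WT 4 (24.9 CPM) stand apart from them in Duox2.

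Per length, the balance between oxidase and maturation factor also differed. FPKM, the counts per kilobase of gene scaled between libraries, allow levels of different genes to be set side by side. The ratio of Duoxa2 to Duox2 in FPKM was 0.727, 0.737, 0.373, 1.62, 0.853, 0.636 and 0.733 in WT 1 to WT 7 and 1.43, 1.56, 1.41, 3.21, 1.56, 1.48 and 1.34 in IKO 1 to IKO 7. By these values Duoxa2 was the lower of the pair in 6 of 7 WT mice and the higher in 7 of 7 IKO mice. The gene length of Duoxa2 is 1592 bases, and it shares 682 exonic bases with Duoxa1 in GENCODE M21. How reads from that stretch were counted is not given. The level of Duoxa2 per length may therefore be off, and which gene of the pair is the higher is uncertain. WT 4 (1.62) alone overlapped the IKO range, and IKO 4 (3.21) stood far above the other 6 IKO mice, at 1.34 to 1.56. The mean ratio was 0.811 ± 0.387 (SD, n = 7) in WT and 1.71 ± 0.665 in IKO. Both outlying mice are among the 3 libraries that stood apart, and in both Duox2 was the lowest of its group. Each gene was also set against its median over the libraries of the same genotype, on the log2 scale. In IKO 4, genes of about the length of Duoxa2 (0.8 to 1.25 times, 1311 genes) had a median deviation of 0.09. Those of about the length of Duox2 (2935 genes) had one of -0.04. Both lay inside the range of the other 13 libraries (-0.20 to 0.39 and -0.08 to 0.09). The part of gene length in the ratio of IKO 4 was not tested.

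Duoxa1 (ENSMUSG00000027224), the maturation factor that pairs with DUOX1, was near the limit of detection in WT. It had 52 counts over the 7 WT mice together and 192 over the 7 IKO mice. In WT the lowest, median and highest values were 0, 0.332 and 0.531 CPM, and in IKO 0.547, 1.70 and 2.22 CPM. The groups did not overlap, though by a narrow margin, from WT 7 (0.531 CPM, 15 counts) to IKO 4 (0.547 CPM, only 5 counts). WT 3 had 0 counts. The fitted log2 difference was 2.19 (SE 0.47), from 0.337 ± 0.180 CPM (SD, n = 7) in WT to 1.59 ± 0.589 CPM in IKO. A level of 3 counts corresponds to 0.106 to 0.204 CPM in the WT libraries and 0.155 to 0.328 CPM in the IKO libraries.

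Duoxa1 shares 695 bases of its gene body with Duoxa2, 682 of them exonic in GENCODE M21, and whether reads were counted by strand is not given in the sources used here, so reads from the shared stretch cannot be told apart. Its counts amounted to 0% to 4.87% of those of Duoxa2 in WT (median 3.32%) and to 0.857% to 1.97% in IKO (median 1.15%). The part of Duoxa2 reads in the Duoxa1 values was not tested. The gene fell out where at least 10 counts in every library or a minimum FPKM was asked for.

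Duox1 (ENSMUSG00000033268), the close relative of Duox2 that is known best from airway and thyroid, went the other way in level but was barely present. It had 6, 11, 6, 6, 3, 12 and 2 counts in WT 1 to WT 7 and 1, 0, 4, 1, 4, 2 and 4 counts in IKO 1 to IKO 7. All 7 IKO mice were below the WT median of 0.285 CPM, but the groups overlapped, at 0.0708 to 0.709 CPM in WT and 0 to 0.241 CPM in IKO. With 46 counts against 16 it was not tested. Per length, Duox1 amounted to a median of 0.547% of Duox2 in WT and 0.0366% in IKO. As paralogs, the 2 genes may share some reads, which the counting could assign either way.

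**Figure D3:**
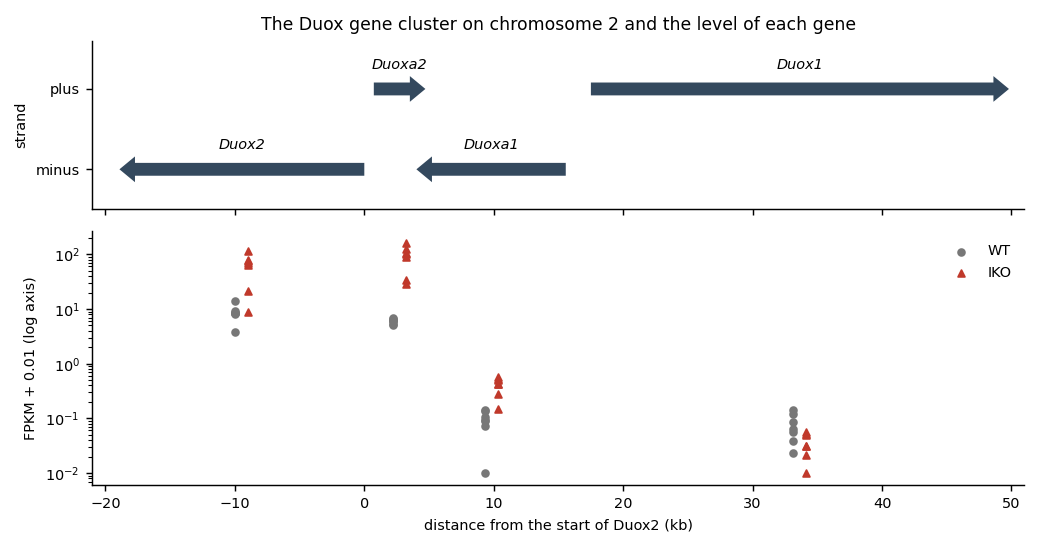
The Duox gene cluster drawn to scale, with the distance in kb from the start of Duox2 on the horizontal axis and arrows pointing along each gene (upper panel), and the FPKM of each gene in each mouse plus 0.01 on a log axis (lower panel), grey circles for WT and red triangles for IKO. Duox2 and Duoxa2, whose starts are 734 bases apart, lie highest in both genotypes and higher in IKO, while Duoxa1 and Duox1 stay under 1 FPKM in all 14 mice.

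Nox1 (ENSMUSG00000031257, chrX:134086421-134221956, mm10), the catalytic subunit of the other epithelial oxidase, was barely detected. It had 15, 1, 0, 5, 5, 6 and 8 counts in WT 1 to WT 7 and 0, 2, 6, 2, 0, 5 and 5 counts in IKO 1 to IKO 7. The groups overlapped across nearly their whole range, 0 to 0.613 CPM in WT (median 0.262) and 0 to 0.333 CPM in IKO (median 0.219), and a difference was not detectable at this depth. Markers of the colon, where Nox1 is known to be high, summed to 14.6 to 29.6 CPM in WT and 8.07 to 21.1 CPM in IKO.

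The cofactors of NOX1 were detected more readily. Noxo1 (ENSMUSG00000019320), the organizer that tethers the complex to the membrane, ranged from 0.997 to 1.80 CPM in WT (median 1.31) and from 0.877 to 1.86 CPM in IKO (median 1.08). IKO 4 was the only IKO mouse above all WT mice, and the groups overlapped. The fitted log2 difference was -0.22 (SE 0.26), -0.34 without IKO 4 and -0.47 without IKO 4, WT 3 and WT 4. Noxa1 (ENSMUSG00000036805), the activator, ranged from 6.21 to 9.41 CPM in WT (median 7.69) and from 6.38 to 13.4 CPM in IKO (median 8.67). In Noxa1, IKO 2, IKO 3 and IKO 4 lay above every WT mouse and the other 4 IKO mice lay among them, and the fitted log2 difference was 0.21 (SE 0.21). It was 0.11 without IKO 4, 0.11 without IKO 2 and 0.08 without IKO 4, WT 3 and WT 4.

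Cyba (ENSMUSG00000006519), whose product p22phox also serves the oxidase of phagocytes, ranged from 34.8 to 83.0 CPM in WT (median 58.1) and from 23.8 to 65.8 CPM in IKO (median 56.2). IKO 4 was the lowest of all 14 mice and the other IKO mice lay within the WT range. The fitted log2 difference was -0.30 (SE 0.23), and -0.07 without IKO 4, WT 3 and WT 4. Macrophage markers summed to 37.9 to 135 CPM in WT and 17.2 to 75.9 CPM in IKO, and their part in the Cyba level was not tested.

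The order of levels per length changed at its top between the genotypes. The place of Duoxa2 in this order is subject to the unknown counting of the stretch it shares with Duoxa1. In WT, Cyba led at 58.0 ± 15.1 FPKM (SD, n = 7), apart from all others, followed by Duox2 at 8.56 ± 2.90, Duoxa2 at 6.06 ± 0.625 and Noxa1 at 4.79 ± 0.655 FPKM. Each of these 3 overlapped its neighbour in that order. Noxo1 followed at 0.451 ± 0.0974 FPKM, clear of Noxa1 above it and of the rest below it. Duoxa1 (0.0830 ± 0.0444 FPKM), Nox1 (0.0742 ± 0.0583) and Duox1 (0.0652 ± 0.0428) closed the order and overlapped one another.

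In IKO, Duoxa2 led at 92.3 ± 47.7 FPKM (SD, n = 7), followed by Duox2 at 62.1 ± 36.0 and Cyba at 48.2 ± 14.1 FPKM, with overlapping ranges. Noxa1 followed at 5.72 ± 1.87 FPKM, and its highest mouse (8.43 FPKM) lay just below the lowest for Duox2 (8.93 FPKM, IKO 4). Duoxa1 and Noxo1 were both at 0.400 FPKM (SD 0.148 and 0.117), and Nox1 (0.0544 ± 0.0427) and Duox1 (0.0260 ± 0.0173) came last. By mean FPKM among the 13846 genes tested, Duoxa2 stood at rank 5096 from the top in WT and at rank 723 in IKO. Duox2 went from rank 4081 to rank 1024, while Cyba stood at ranks 811 and 1225.

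Other genes of the pathway were taken from 7 lists of 83 genes, none of them a member of the set. Of these, 63 were tested, 13 rose in IKO and 1 fell, with an adjusted p under 0.05 by edgeR's quasi-likelihood test over all genes. Over all 13846 genes tested, 8.67% passed (4.38% higher and 4.28% lower), the share to set beside each count below. The lists were chosen with earlier results of these data known, so the counts are a description. Across all genes tested the median log2 difference was -0.09 and 43.5% of genes were above 0. Without IKO 4, WT 3 and WT 4, 5 of the 14 passed: Me1, G6pdx, Pgd, Prdx6 and Ido1.

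The NADPH supply, which feeds every enzyme of this family, was the list with the most changes: 5 of its 9 tested genes rose, 0 fell, 8 were above 0 and the median log2 difference was 0.68. Me1, malic enzyme, rose from 18.7 ± 8.07 CPM (SD, n = 7) in WT to 83.9 ± 39.9 CPM in IKO, a log2 difference of 2.16 (SE 0.34, adjusted p = 0.00257). G6pdx, the entry step of the pentose phosphate pathway, rose from 52.8 ± 9.19 to 95.1 ± 20.3 CPM (log2 difference 0.85, SE 0.16, adjusted p = 0.00804). Pgd, the next NADPH-making step of that pathway, rose from 240 ± 34.1 to 432 ± 87.0 CPM (log2 difference 0.85, SE 0.17, adjusted p = 0.00875). Idh1, the cytosolic isocitrate dehydrogenase, rose by 0.89 on the log2 scale (SE 0.21, adjusted p = 0.0193), and its adjusted p was 0.0793 without the 3 libraries. The IKO level was above the WT median in all 7 IKO mice for each of these 4 genes.

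Of the 16 genes for the removal of superoxide and peroxide, 3 rose, 0 fell, 14 were above 0 and the median log2 difference was 0.53. Prdx6, a peroxiredoxin, rose from 139 ± 30.4 CPM (SD, n = 7) to 306 ± 89.9 CPM (log2 difference 1.14, SE 0.21, adjusted p = 0.00739). Cat, catalase, rose from 308 ± 96.3 to 562 ± 75.0 CPM (log2 difference 0.87, SE 0.21, adjusted p = 0.0248). Prdx1 rose from 596 ± 115 to 1013 ± 224 CPM (log2 difference 0.77, SE 0.19, adjusted p = 0.0251). The call of Cat was lost without IKO 5 (adjusted p = 0.0510) and that of Prdx1 without WT 4, WT 7 or IKO 1 (adjusted p = 0.0512, 0.0523 and 0.0612). Without IKO 4, WT 3 and WT 4 together, the adjusted p was 0.0995 for Cat and 0.105 for Prdx1.

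**Figure D4:**
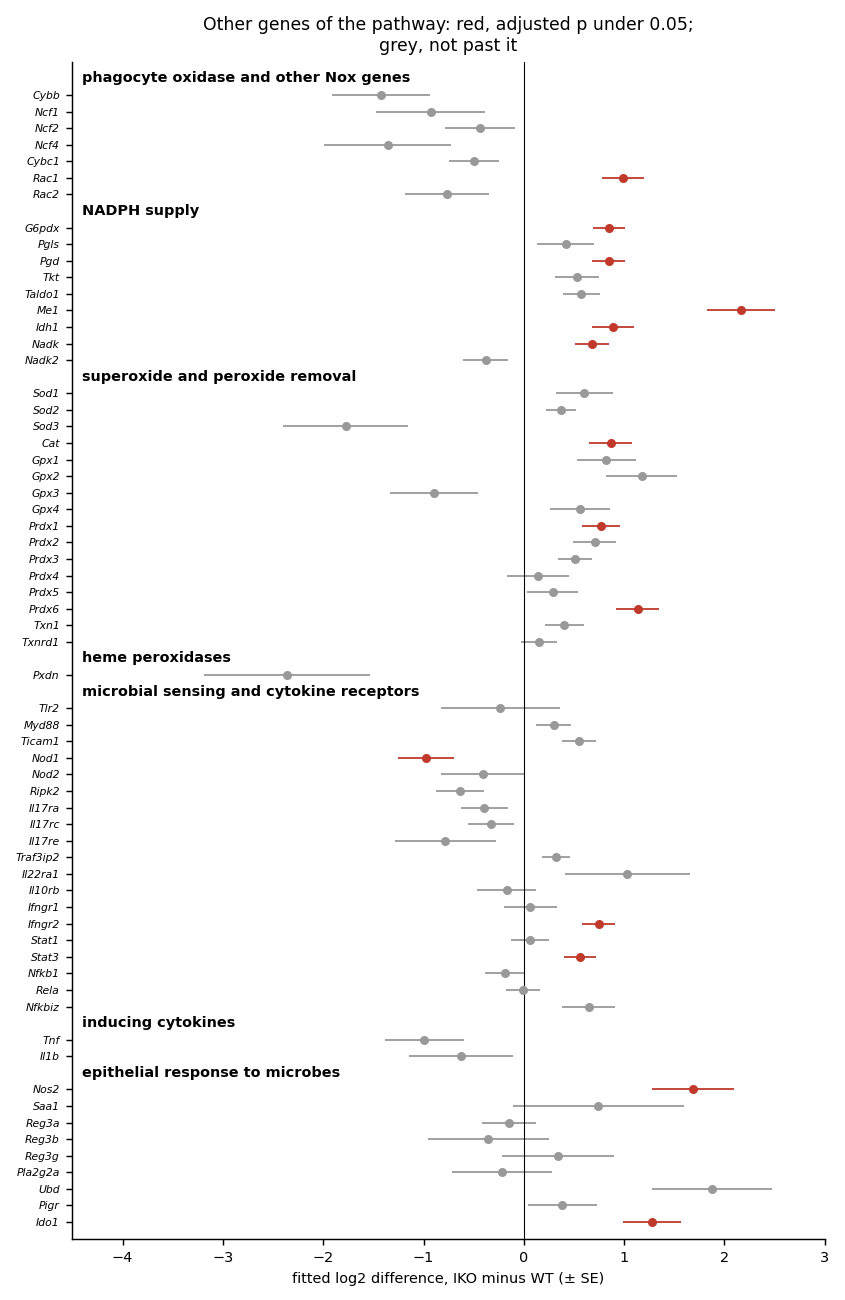
Fitted log2 difference (IKO minus WT) ± SE for each tested gene of the 7 pathway lists, red where the adjusted p was under 0.05. The red points stand mostly in the NADPH supply (5 of 9) and in superoxide and peroxide removal (3 of 16), all above 0, and Nod1 is the only red point below 0.

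Among the phagocyte oxidase subunits and other Nox genes, 1 of 7 tested genes rose, 0 fell, and the median log2 difference was -0.77. The gene that rose was Rac1, the widely expressed GTPase that also serves NOX1, from 336 ± 102 CPM (SD, n = 7) to 668 ± 116 CPM (log2 difference 0.99, SE 0.21, adjusted p = 0.0120). All 7 IKO mice exceeded the median of WT. Its adjusted p was 0.0693 without IKO 4, WT 3 and WT 4. The 6 others all had values below 0, and none passed the test. Cybb, the catalytic subunit of the phagocyte oxidase, named here after its value was seen, had a log2 difference of -1.42 (SE 0.49, adjusted p = 0.0756). Macrophage markers had values below 0 in 6 of 6 genes with 0 called, and neutrophil markers summed to 0.243 to 2.41 CPM in WT and 0.175 to 0.984 CPM in IKO.

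Heme peroxidases, which can use the peroxide that the oxidases release, had 1 of 5 genes tested and 0 called, and Mpo was listed at 0 counts in all mice. The gene tested was Pxdn, a peroxidase of the extracellular matrix, with a log2 difference of -2.36 (SE 0.83, adjusted p = 0.0783). The list summed to 42.6 CPM in WT 4, the library rich in smooth muscle markers, and to 0.723 to 3.86 CPM in the other 13. In the list for the sensing of microbes and cytokines, 2 of 19 tested genes were higher and 1 lower, beside 8.67% of all genes, and the median log2 difference was -0.01. Ifngr2, a chain of the interferon-gamma receptor, rose from 192 ± 41.8 CPM (SD, n = 7) to 322 ± 42.7 CPM (log2 difference 0.75, SE 0.16, adjusted p = 0.0149; 0.0645 without the 3 libraries). Stat3, which relays IL-22 signals, rose by 0.56 on the log2 scale (SE 0.16, adjusted p = 0.0411), and Nod1, a sensor of bacterial wall fragments, fell by 0.97 (SE 0.28, adjusted p = 0.0439). Neither of the latter was firm. The call of Stat3 was lost in 13 of 23 other fits, among them those without WT 1, WT 2, WT 3, WT 4, WT 7, IKO 1, IKO 3, IKO 4, IKO 5 or IKO 7 (adjusted p 0.0541 to 0.0847). That of Nod1 was lost in 17 of 23, among them those without WT 1, WT 3, WT 4, WT 7 or any 1 of the IKO mice (adjusted p 0.0556 to 0.0885).

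Of the 8 genes in the list of inducing cytokines, 6 had too few counts to be tested and 0 of the other 2 were called. Tnf had a log2 difference of -0.99 (SE 0.39, adjusted p = 0.111), from 1.13 ± 0.595 CPM (SD, n = 7) in WT, and Il1b one of -0.63 (SE 0.52, adjusted p = 0.432), from 0.975 ± 0.898 CPM. Il22 had 1 count over all 14 mice and Il17a had 9, which allows no comparison at this depth. Among genes of the epithelial response to microbes, 2 of 9 tested genes rose, 0 fell and the median log2 difference was 0.38. Nos2, the inducible nitric oxide synthase, rose from 90.8 ± 38.0 CPM (SD, n = 7) to 293 ± 185 CPM (log2 difference 1.69, SE 0.41, adjusted p = 0.0222). The WT median was exceeded by 6 IKO mice. Its adjusted p was 0.0616 without the 3 libraries. Ido1, which degrades tryptophan, rose from 35.0 ± 12.0 to 84.9 ± 37.2 CPM (log2 difference 1.28, SE 0.29, adjusted p = 0.0161) and exceeded the WT median in all 7 IKO mice.

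Cell type markers gave the background to these values. Of 72 marker genes in 15 lists, 62 were tested, 1 was higher and 1 lower. The gene that rose was Fabp1, a fatty acid binding protein of the proximal small intestine (log2 difference 2.17, SE 0.55, adjusted p = 0.0277). Its list summed to 443 to 4430 CPM in WT and 2429 to 9335 CPM in IKO, with 3 of 5 genes above 0. Fabp1 itself went from a mean of 802 CPM in WT to 3607 CPM in IKO. The paper also reported it higher in the IKO ileum by RT-qPCR and Western blot, as a target gene of the nuclear receptor PPARα. Lct, of the same list, was lower in IKO (log2 difference -1.01, SE 0.59, adjusted p = 0.254). The gene that fell was Avil, a tuft cell marker (log2 difference -1.17, SE 0.33, adjusted p = 0.0413), whose list had 4 of 4 genes below 0 and summed to 21.9 to 50.6 CPM in WT and 9.07 to 26.0 CPM in IKO. Fabp1, Lct and Avil were named after their values were seen. The epithelial markers summed to 11733 to 44524 CPM in WT and 30614 to 40720 CPM in IKO, with 0 of 6 called. Stem cell markers summed to 57.7 to 179 CPM in WT and 33.2 to 108 CPM in IKO, with 4 of 4 genes below 0 and 0 called. T cell and intraepithelial lymphocyte markers summed to 62.3 to 158 CPM in WT and 74.0 to 243 CPM in IKO. Of those 5 genes only 2, Gzma and Gzmb, were above 0, with 0 called and a median log2 difference of -0.07. Their part in the oxidase levels was not tested.

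Across the 14 mice, after the mean of each genotype was subtracted, the genes most like Duox2 in log2 CPM were Manba (r = 0.93), Fas (0.92), Sema6d (0.91), Pdia4 (0.91), Gramd4 (0.90), Gm6378 (0.90), Map3k1 (0.90), Cybc1 (0.89), Cpd (0.89) and Kbtbd2 (0.89). Over the 13845 other genes tested the median r was 0.01, and 154 had an r above 0.8. These values rest in part on IKO 4, since 0 of the 10 were among the 10 most like Duox2 without it, when their r ranged from 0.73 to 0.86. Duoxa2 stood at rank 28 (r = 0.86), and at rank 276 without IKO 4 (r = 0.74). Cyba had an r of 0.48, Duoxa1 0.37, Noxo1 -0.37 and Noxa1 -0.63 over the 14 mice. All points share the depth and composition of their libraries, so these r are given as a description. Nox1 was not tested, and the genes most like it were not computed.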

How the data were processed

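The deposited counts are whole reads per gene, made by the authors with HISAT2 2.0.5 and featureCounts 1.5.0-p3 on mm10 and not normalized. The submitters' notes also name DESeq2 1.16.1. Strandedness is not given in the sources used here. The deposited FPKM are counts per kilobase scaled by DESeq2 size factors, as tested on the values. Genotypes were taken from the sample titles.

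Genes were filtered with filterByExpr, scaled by TMM and compared by genotype alone with edgeR 4.0.16 (glmQLFit, glmQLFTest; R 4.3.3), and p-values were adjusted by Benjamini-Hochberg over 13846 genes. CPM use the TMM factors, and log2 CPM add a prior count of 2. Depth was 14749669 to 21557468 counts, and counting noise covers counting error only. Each library is 1 mouse. Correlations within a genotype, for pairs with a median of at least 10 counts, were tested by exact permutation.

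The members and lists were chosen with earlier results of these data known. Genes named are the members, Ncor1, the called genes of each pathway list (the 4 with the smallest p where more were called) and the 10 genes most like Duox2. Alternatives were DESeq2 1.42.0, RLE scaling, other filters, limma 3.58.1 on log2 FPKM with pseudocounts of 1 and 0.1 (FPKM above 0.5 in at least 7 samples, or no filter), the replicate number as a block and each library left out. Leaving out 3 libraries together was added after seeing the data. Of these fits, only the main edgeR fit was tested on simulated data.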

Additional observations from a re-analysis of the deposited data

Results flagged for a closer look

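Of 18 groups of 7 mice examined (the 8 genes and the ratio of Duoxa2 to Duox2, in each genotype), 2 held a mouse whose gap to its neighbour, as a share of the group's range, was above Dixon's critical value for groups of 7. Both concerned the ratio of Duoxa2 to Duox2 in FPKM. In WT, WT 4 had a ratio of 1.62 and the next mouse 0.853, a gap of 0.615 of the range. In IKO, IKO 4 had a ratio of 3.21 and the next mouse 1.56, a gap of 0.882. Chance gives about 1 in 20 groups, or 0.9 of the 18. WT 4 is the library richest in smooth muscle markers and IKO 4 the one with 50.3% of its counts on mitochondrial genes, and their part in these ratios was not tested.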

How the results depend on the processing

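Since the genotype contrast chose the members, their values under the alternatives are a description and add no support. The log2 differences of Duox2 and Duoxa2 were 2.44 to 3.04 and 3.51 to 4.05 over 23 alternatives. That of Duoxa1 moved to 0.36 with limma on log2(FPKM + 1) without a filter, where the pseudocount is above its level. The members called numbered 3 whichever library was left out and without IKO 4, WT 3 and WT 4 together. The genes called over the whole table (1200, 607 of them higher) were 2444 with DESeq2, 508 without a filter, 1036 (708 higher and 328 lower) with limma on log2(FPKM + 1), 614 with the latter and no filter, and 433 without IKO 4, WT 3 and WT 4. With 1 library left out they ranged from 515 to 1371 (746 without WT 4, 600 without WT 7, 526 without IKO 1, 728 without IKO 2, 515 without IKO 5 and 789 without IKO 7). The 14 pathway genes called became 23 with DESeq2, 5 without the 3 libraries, and 10 to 17 with 1 library left out. Ncor1 ranged from -1.49 to -1.30 with 1 library left out. The correlation of Duox2 with Duoxa2 ranged from 0.97 to 1.00 in IKO and from -0.56 to 0.05 in WT, where it changed sign (0.0537) without WT 3. Except where a filter removed genes or fewer libraries were used, the cause of these shifts was not tested.

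The replicate numbers gave no clear sign of pairing: the correlation between same-numbered deviations was -0.31 to 0.23, over 0.1 in 1 of 7 numbers. Such correlations cannot exclude that some mice shared a litter, cage or batch. With the number as a block, 362 genes, 2 members (Duox2 and Duoxa2) and 5 pathway genes were called, and Ncor1 was at -1.42 (adjusted p = 0.0103). Depth limits Duox1, Nox1 and most cytokines, which had too few counts to be compared.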
